A study of Mus musculus with 18 samples.

Results

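Leukocytes leave the blood by slowing, arresting and crossing on a small set of endothelial surface proteins. The genes of 5 of these proteins are described here in the cells of the kidney glomerulus: the selectins *Sele* (E-selectin) and *Selp* (P-selectin), and the immunoglobulin family members *Vcam1*, *Icam1* and *Icam2*. They were taken by gene symbol from a table of 28856 transcript clusters, the units over which this array sums its probes for a gene, and each of the 5 genes matched 1 transcript cluster. A gene of more than 1 cluster would have been read from its brightest one. All 18 arrays of the table were used.

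The study used *Cd2ap* mutant mice, a model of focal segmental glomerulosclerosis in which a slit diaphragm adapter protein of the podocyte is missing. The aim was to compare each major cell type of the glomerulus between mutant and control mice. Glomeruli of mice 5 weeks of age were sieved and dissociated, GFP positive cells were sorted, and amplified RNA of the sorted cells was put on Affymetrix Mouse Gene ST arrays. The 18 arrays fall into 6 groups of 3.

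The mutants were CD2AP-/- mice of the line B6.129X1-*Cd2ap* tm1Shaw/J and carried the mutation in every cell, not in 1 cell type alone. Controls were wild type by their sample records. The columns of the mesangial controls, however, carry a plus and a minus sign where the other controls carry a pair of plus signs. Their titles say control where those of the other controls say wild type. The mesangial controls may thus have been heterozygous, which the sources leave unsettled, and they are called wild type below by the sample records. Endothelial cells were sorted by *Tie2-GFP* (Tg[*TIE2GFP*]287Sato/J), mesangial cells by *Meis1-GFP* (Tg(*Meis1-EGFP*)FO156Gsat) and podocytes by a further GFP transgene, in both genotypes. Each cell type thus came with a reporter of its own, and cell type and reporter cannot be told apart. If the mesangial controls were heterozygous, control genotype and cell type cannot be told apart either in any comparison or interaction with mesangial cells. The *Tie2* promoter can also be active in some blood cells. The series record calls the arrays biological triplicates and does not say whether a replicate was 1 mouse or a pool, so the p-values measure the spread between these samples. The letters A, B and C name the arrays of each group and stand for no order.

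E-selectin and P-selectin bind sugar structures on passing leukocytes and let them roll. P-selectin is kept in storage granules of endothelial cells and platelets, whereas E-selectin is made anew when endothelium meets cytokines such as TNF or IL-1. VCAM1 and ICAM1 then hold the rolling cell by its integrins, and both rise with the same cytokines through NF-kappaB, while ICAM2 is present on resting endothelium. VCAM1 is also made by pericytes and other perivascular cells.

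*Sele* and *Selp* lie near each other on mouse chromosome 1. *Icam1* lies on chromosome 9 next to *Icam4*, *Vcam1* on chromosome 3 and *Icam2* on chromosome 11. The promoter table used here, from RefSeq with the build GRCm38.p6, held 3 of the 5 genes, *Sele*, *Selp* and *Icam1*. The 250 bases before their start sites are shown because NF-kappaB is the known common regulator of inducible adhesion molecules. Capitals mark matches to the core GGNNNTTCC, in which N is any base, read on both strands.
*Sele*, chr1:164047984-164048233, plus strand: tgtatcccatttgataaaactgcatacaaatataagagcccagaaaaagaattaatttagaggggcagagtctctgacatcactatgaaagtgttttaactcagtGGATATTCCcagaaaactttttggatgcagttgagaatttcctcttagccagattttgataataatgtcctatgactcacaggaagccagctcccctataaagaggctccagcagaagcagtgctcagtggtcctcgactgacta
*Selp*, chr1:164115014-164115263, plus strand: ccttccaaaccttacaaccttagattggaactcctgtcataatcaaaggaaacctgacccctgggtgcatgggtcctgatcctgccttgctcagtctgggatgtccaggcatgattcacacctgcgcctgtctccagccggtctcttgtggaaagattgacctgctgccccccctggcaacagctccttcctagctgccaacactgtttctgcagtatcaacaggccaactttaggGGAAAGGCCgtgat
*Icam1*, chr9:21015690-21015939, plus strand: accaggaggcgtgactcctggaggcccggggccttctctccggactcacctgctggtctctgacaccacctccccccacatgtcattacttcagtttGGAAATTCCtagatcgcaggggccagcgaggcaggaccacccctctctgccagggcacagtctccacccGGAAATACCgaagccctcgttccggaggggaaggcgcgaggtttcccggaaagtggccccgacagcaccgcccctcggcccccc

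In *Sele* the core began 145 bases before the start site. In *Icam1* it matched on both strands 153 bases before the start and once more, on the minus strand, 84 bases before it. In *Selp* the match was on the minus strand, 14 bases before the start. Such a match was present in 15.7% of the 32851 windows of this length in the table. *Sele* also held TATAAA, 49 bases before the start, and *Selp* and *Icam1* did not; 12.4% of all windows held it on either strand. The letters TGANTCA, which take in the known AP-1 site TGACTCA, occurred 73 bases before the start of *Sele*, in that form, and 139 bases before that of *Selp*, as TGATTCA, and in 6.75% of all windows. The letters searched were chosen with these sequences in view, and a match describes letters, not binding.

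The cell types were checked against marker lists. The summed signal of 14 endothelial markers, among them *Pecam1*, *Cdh5* and *Kdr*, was 18615 to 21084 on the endothelial arrays, and all 14 reached a signal of 100 on at least 1 array of each endothelial group. On the mesangial arrays the sum was 3638 to 4090.1, except for wild type array C with 9329, on which the summed signal of 10 podocyte markers was 4595, against 983 to 1249.8 on the other 5 mesangial arrays. On podocyte arrays the endothelial sum was 5214 to 6895 in wild type and 1289 to 3417 in mutant cells. The 10 podocyte markers summed to 14640.2 to 18179 on podocyte arrays and to at most 4595 elsewhere. The 8 mesangial markers summed to 4630.5 to 7524 on mesangial arrays, 2226 to 4103 on podocyte and 574.8 to 649 on endothelial arrays, but within this list *Foxd1* was at 986 to 1294 on podocyte arrays and at most 155 on the others, and *Tbx18* was at 91.4 to 111 on mesangial and 86.2 to 125 on the other arrays. Pearson's r between arrays of a group was 0.967 to 0.992 over log2 signals, lowest in mutant podocytes. In sorted cells, fewer cells of a type and less RNA per cell cannot be told apart.

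*Cd2ap* itself was read first, as a check of the labels. On endothelial arrays labelled mutant its signal was 891, 966 and 920.4, and on those labelled wild type it was 839.8, 859 and 757. The gene was thus not lower in the mutant endothelium, with a log2 difference of 0.18 ± 0.09 (SE). In mesangial cells it was 819, 870.4 and 797 in the mutant against 922, 1037 and 1123 in wild type. In podocytes it was 1512, 1503 and 1478 against 2108, 1670.4 and 1546. Mutant arrays were lower in both of these cell types, by 0.31 and 0.23 on the log2 scale, and neither passed the adjusted test. Which probes lie in the mutated part of the gene is not given in the sources used here, so every direction below rests on the labels.

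Of the 5 adhesion molecules, 4 had a signal of at least 100 on at least 1 array of each cell type, the minimum used for testing. *Icam2* reached it on 17 of 18 arrays, *Vcam1* on 13, *Icam1* on 10 and *Sele* on 9. *Selp* reached it on none. Signals are linear RMA values in arbitrary units, and levels of different genes cannot be compared because each gene has its own probes.

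**Figure D1:**
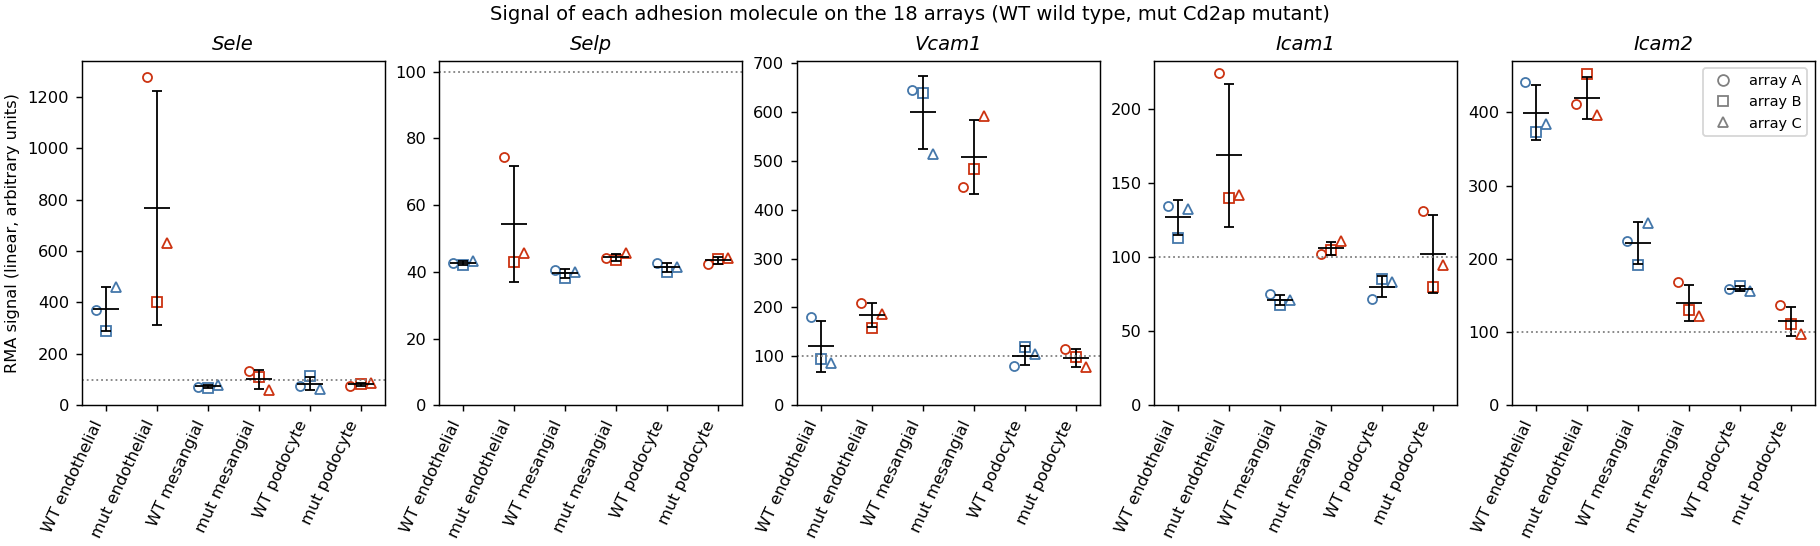
RMA signal (linear scale, each panel with its own axis) of the 5 genes on 18 arrays, by cell type and genotype. Points are arrays, black bars the mean ± SD of 3 arrays, and the dotted line the signal minimum of 100; *Sele* was at 289.7 or more on every endothelial array and at most 132 elsewhere, and *Vcam1* was at 446 or more on every mesangial array and at most 209 elsewhere.

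The genes took different places among the cell types. *Sele*, *Icam1* and *Icam2* were higher in wild type endothelial cells than in both other cell types. *Vcam1* was highest in mesangial cells. Cell types were compared over the wild type arrays in a limma fit of all 18 arrays, with an adjusted p under 0.05 and a fold change over 2 as the threshold. By that rule 2 of the 4 tested genes differed between endothelial and mesangial cells, where 8.53% of 13523 transcript clusters did. Between endothelial cells and podocytes 2 of 4 differed, against 9.81% of all, and between podocytes and mesangial cells 1 of 4, against 6.71% of all.

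*Sele*, the cytokine-induced rolling receptor, had signals of 372, 289.7 and 459.8 on the wild type endothelial arrays. The wild type mesangial arrays gave 72.7, 68.6 and 79.2, and the wild type podocyte arrays 73.5, 112 and 65.1. Every endothelial array was above every other array, and the other 2 cell types overlapped near or below the signal minimum. The endothelial level was 5.01-fold that of mesangial cells (log2 2.32 ± 0.35 SE, adjusted p = 8.4e-05) and 4.52-fold that of podocytes (log2 2.18 ± 0.35 SE, adjusted p = 1.4e-04). Both are ratios of RMA signals against values around the array medians, mostly under the minimum of 100, where signal and background are not separated, so the true fold is not given by them. Podocytes and mesangial cells differed by 0.15 with a 95% confidence interval of -0.59 to 0.88.

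*Icam2*, the constitutive endothelial ligand of the integrin LFA-1, read 442, 373 and 383 in wild type endothelium. It read 225, 192 and 249 in wild type mesangial cells and 159, 163 and 156 in wild type podocytes. The groups kept apart from each other without overlap. Endothelial cells were 2.50-fold above podocytes (log2 1.32 ± 0.14 SE, adjusted p = 2.4e-06). They were 1.81-fold above mesangial cells (log2 0.85 ± 0.14 SE, adjusted p = 2.2e-04), which passed the adjusted p and fell short of a 2-fold change. Podocytes were lower than mesangial cells by 0.47 on the log2 scale (adjusted p = 0.024).

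*Icam1*, the inducible ligand of the same integrin, read 135, 113 and 133 in wild type endothelium, 74.8, 67.7 and 71.0 in mesangial cells and 71.9, 85.0 and 83.4 in podocytes. The endothelial arrays were again all above the others. The differences were 0.83 ± 0.18 (SE) against mesangial cells (adjusted p = 0.0023) and 0.66 ± 0.18 against podocytes (adjusted p = 0.0090). All wild type mesangial and podocyte arrays were under the minimum of 100, so these too are ratios of signals against values near the array medians and do not give the true fold. Podocytes and mesangial cells overlapped, with a difference of 0.17 and an interval of -0.21 to 0.55.

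*Vcam1*, which binds the integrin VLA-4, read 645, 639 and 513 on the wild type mesangial arrays. It read 179.6, 93.9 and 87.2 in endothelium and 79.6, 119 and 105 in podocytes. Mesangial cells stood above every array of the other 2 types, which overlapped. The log2 difference was -2.39 ± 0.24 (SE) for endothelial minus mesangial cells (adjusted p = 1.2e-06) and -2.58 ± 0.24 for podocytes minus mesangial cells (adjusted p = 9.7e-07). In endothelium 93.9 and 87.2, and in podocytes 79.6, were under the signal minimum of 100. Both differences therefore do not give the true fold. Endothelial cells and podocytes differed by 0.19 with an interval of -0.32 to 0.69. That difference was -0.14 without wild type endothelial array A, whose 179.6 stood well above the other 2 wild type endothelial values.

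**Figure D2:**
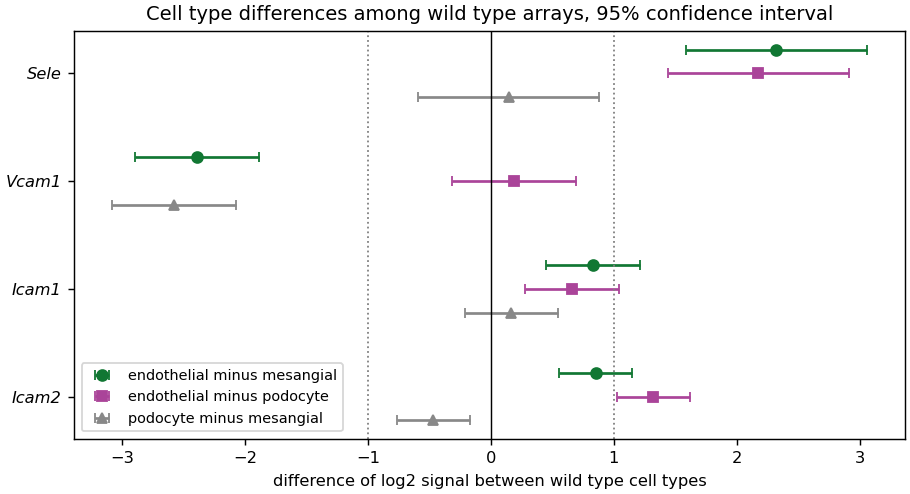
Differences of log2 signal between the wild type arrays of 2 cell types, with 95% confidence intervals from the limma fit over 18 arrays; dotted lines mark a 2-fold change. *Sele* is far to the right against both other cell types and *Vcam1* far to the left against mesangial cells, while the *Vcam1* difference between endothelial cells and podocytes crosses 0.

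*Selp*, the stored selectin, gave 42.7, 41.9 and 43.3 in wild type endothelium, 40.6, 38.1 and 39.9 in mesangial cells and 42.5, 39.9 and 41.5 in podocytes. All lie in a narrow band well under the signal minimum, and the gene entered no test of levels. Of 8 platelet and megakaryocyte markers, at most 1 reached 100 on any array of a group, and their summed signal was 472 to 591 on all arrays.

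Mutant and wild type cells were compared within each cell type. The screen of the study's methods was followed, an unadjusted limma p under 0.05 together with a change of more than 1.5-fold, among transcript clusters that reached 100 on any of the 6 arrays. A Benjamini-Hochberg adjusted p under 0.05 over all transcript clusters tested is called the adjusted test. *Sele* and *Vcam1* passed the screen as higher in mutant endothelial cells, and *Icam2* as lower in mutant mesangial cells. *Icam1* was higher in mutant mesangial cells by the adjusted test, at a fold change just under the 1.5 of the screen. It entered that test through the mutant arrays alone. The call was lost without any array but wild type array C and in the fit of all 18 arrays. No tested gene passed either in podocytes.

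**Figure D3:**
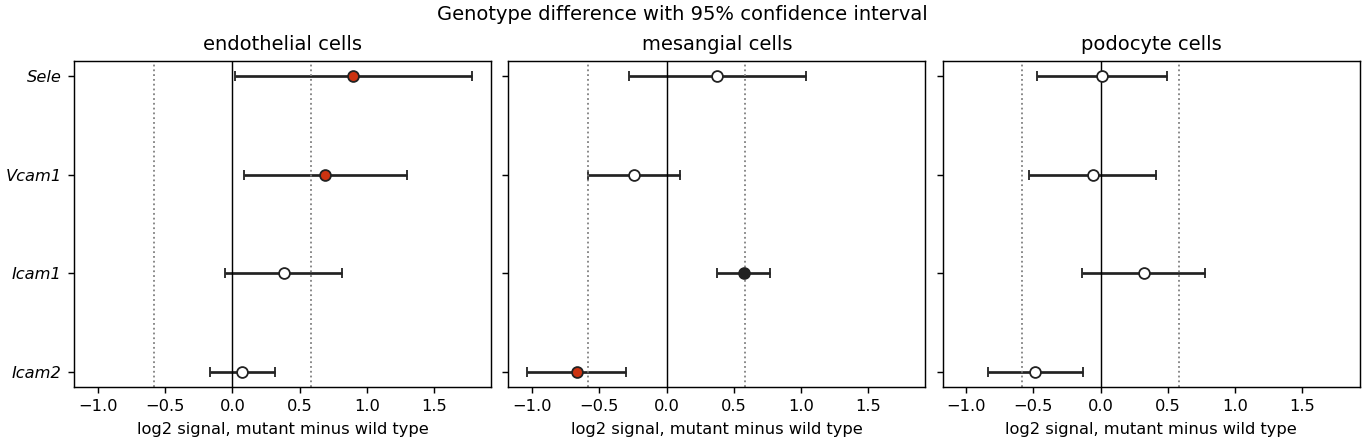
Log2 difference between mutant and wild type arrays of 4 genes in each cell type with its 95% confidence interval from limma; dotted lines mark a 1.5-fold change. Red points passed the screen (*Sele* and *Vcam1* in endothelial cells, *Icam2* in mesangial cells), the black point passed the adjusted test (*Icam1* in mesangial cells), and white points passed neither.

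In endothelial cells 2 of the 4 tested genes passed the screen, both as higher, where 3.82% of 11330 transcript clusters passed it and 2.96% as higher. The study itself named *Sele* and *Vcam1* for these cells, and they were chosen here with that known, so this count is not independent evidence of their direction. None of the 4 passed the adjusted test, which 1.29% of all transcript clusters passed; unadjusted, 2 of the 4 had a p under 0.05, as had 18.5% of all.

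*Sele* read 1278, 400.1 and 629.5 on the endothelial arrays labelled mutant against 372, 289.7 and 459.8 on those labelled wild type. Arrays A and C of the mutant were above all wild type arrays, and array B lay below wild type array C. The mean was 769 ± 455 (SD, n = 3) in the mutant and 373.9 ± 85.1 in wild type. The difference was 0.90 ± 0.38 on the log2 scale (SE), a fold change of 1.87, with an unadjusted limma p of 0.0469 and an adjusted p of 0.265. Without mutant array A it was 0.45 with an unadjusted limma p of 0.120, and neither *Sele* nor *Vcam1* then passed the screen. *Sele* also left it without mutant array C (0.96), wild type array A (0.91) or wild type array B (0.73). With all arrays kept, it left the screen under 4 of 7 other settings. Without mutant array B the difference was 1.29.

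*Vcam1* read 209, 158 and 187 on the endothelial arrays labelled mutant against 179.6, 93.9 and 87.2 in wild type. Wild type arrays B and C were below every mutant array, and wild type array A lay between mutant arrays B and C. Both B and C of wild type were under the signal minimum, so the fold change below does not give the true fold. The difference was 0.69 ± 0.26 (SE), a fold change of 1.61, with an unadjusted limma p of 0.0306 and an adjusted p of 0.226. Leaving out mutant array A or C, or wild type array B or C, took it out of the screen, with differences of 0.50 to 0.68. Without wild type array A the difference was 1.02 and its adjusted p 0.0238.

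*Icam1* read 224, 139.7 and 142 in mutant against 135, 113 and 133 in wild type endothelium. The 2 genotypes did not overlap, as was the case for 25.1% of the transcript clusters tested in this cell type. The difference was 0.38 ± 0.19 (SE, adjusted p = 0.320), and it passed neither test. Without mutant array A it was 0.16.

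*Icam2* read 412, 452 and 396 in mutant and 442, 373 and 383 in wild type endothelium, with overlapping genotypes. Its difference was 0.07 with an interval of -0.17 to 0.32. A second quantile normalization turned this to -0.047, and the direction of *Icam2* in endothelium is not settled. *Selp* read 74.3, 42.9 and 45.7 against 42.7, 41.9 and 43.3, below the signal minimum on every array.

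Mutant endothelial array A was the highest of the 6 endothelial arrays for *Sele*, *Selp*, *Vcam1* and *Icam1*, and not for *Icam2*. It was also the highest for leukocyte markers. The summed signal of 12 leukocyte markers was 1443 on this array, 1012 and 766 on the other 2 mutant arrays and 699 to 881 in wild type endothelium. Of these 12 markers, 4 reached a signal of 100 on a mutant endothelial array, with *Tyrobp*, a myeloid adaptor gene, at 475 and *Ptprc*, which encodes the leukocyte antigen CD45, at 168 on array A. None of the 4 passed the screen, and their median difference was 0.51. The part of leukocyte RNA in the values of *Sele*, *Vcam1* and *Icam1* was not tested.

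Of 4 markers of veins and larger vessels, 2 were tested in endothelial cells and 1 passed the screen. *Nr2f2*, a venous transcription factor, was 274, 160 and 193 in mutant and 106, 128 and 99.3 in wild type endothelium, and passed it at 0.89 ± 0.20 (SE, adjusted p = 0.0799). *Ephb4*, a venous receptor, was 445, 373 and 424 against 269.7, 265 and 329, without overlap, and at 0.53 ± 0.12 (adjusted p = 0.0862) was short of a 1.5-fold change. *Vwf* read 64.2, 63.2 and 61.9 in mutant against 75.8, 70.8 and 74.8 in wild type, and *Ackr1* 34.6 to 38.4 against 37.7 to 38.8, below the signal minimum. The summed signal of the 4 venous and larger vessel markers was 632 to 819.6 in mutant and 489 to 541 in wild type arrays. Of the 14 endothelial markers 1 passed the screen, *Plvap*, the protein of fenestral diaphragms, at 0.94 ± 0.24 (adjusted p = 0.110). The part of vessel type in the values of *Sele* and *Vcam1* was not tested.

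In mesangial cells 1 of the 4 tested genes passed the screen, *Icam2*, as lower, where 5.19% of 11457 transcript clusters passed it and 3.12% as lower. By the adjusted test 1 of 4 was called, *Icam1*, as higher, where 2.92% of all were called and 1.25% as higher. *Icam1* reached the signal minimum only on the mutant arrays, the group where it was high, so nothing is read from this count. The genotypes did not overlap for 2 of the 4 genes, and for 28.6% of all transcript clusters tested.

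*Icam1* read 102, 105 and 111 in mutant mesangial cells against 74.8, 67.7 and 71.0 in wild type. All 3 mutant arrays were above the wild type arrays and just above the signal minimum, which no wild type array reached. The fold is a ratio of signals against values near the array medians. The difference was 0.57 ± 0.08 (SE), a fold change of 1.49, with an adjusted p of 0.0246 by limma. The difference stayed between 0.54 and 0.61 whichever array was left out, with adjusted p of 0.0444 to 0.0969, and only without wild type array C was it under 0.05. In the fit of all 18 arrays the adjusted p was 0.0845. In the same mutant arrays, of 5 smooth muscle and juxtaglomerular markers tested, 2 passed the screen as higher, *Acta2* and *Tagln*. The median of the 5 was 0.13, against -0.02 for all transcript clusters tested. The summed signal of the 5 was 1592 to 2892 in mutant and 1326 to 1609 in wild type mesangial cells. Of 2 parietal epithelial markers tested, *Cldn1* passed the adjusted test, with 188, 193 and 314 against 109, 117 and 92.7 (1.09 ± 0.21 SE, adjusted p = 0.0497). The other, *Cd24a*, went the opposite way, at -0.97 (adjusted p = 0.309), and passed neither test. Its genotypes overlapped, and it was highest on wild type array C. The parietal list thus did not move as 1 group. The part of smooth muscle, juxtaglomerular and parietal cells in the *Icam1* values was not tested.

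*Icam2* went the other way, with 168, 129.9 and 122 in mutant against 225, 192 and 249 in wild type mesangial cells. The highest mutant array was below the lowest wild type array. The difference was -0.67 ± 0.15 (SE), a fold change of 0.630, with an unadjusted limma p of 0.0037 and an adjusted p of 0.0728. Wild type array C, with the raised endothelial sum of 9329, was also the highest of the 6 for *Icam2*. Without it the difference was -0.58 with an unadjusted limma p of 0.0117. Without mutant array C it was -0.58 with an unadjusted limma p of 0.0147. Both fell just short of a 1.5-fold change.

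Some endothelial markers were lower in these mutant cells too. Of 13 tested in mesangial cells, 2 passed the adjusted test, both as lower in the mutant: *Tek*, the angiopoietin receptor, by -1.19 ± 0.23 (SE, adjusted p = 0.0497) and *Ehd3*, a gene of glomerular endothelium, by -0.98 ± 0.11 (adjusted p = 0.0121). The median of the 13 was -0.34, where that of all transcript clusters tested was -0.02. This median takes in wild type array C. The sum of the 14 endothelial markers was 3638 to 3863 in mutant and 3721, 4090.1 and 9329 on wild type arrays A, B and C. The median is thus not a fall of endothelial markers against each wild type array. *Pecam1* was 172, 191 and 90.8 in mutant and 82.3, 107 and 807 in wild type mesangial cells, so outside wild type array C it was not lower in the mutant. The part of endothelial RNA in the *Icam2* values was not tested.

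*Vcam1*, the mesangial member by level, read 446, 484 and 592 in mutant and 645, 639 and 513 in wild type mesangial cells. The genotypes overlapped, and the difference was -0.24 ± 0.14 (SE, adjusted p = 0.379). Of 8 mesangial markers, all tested, 2 passed the adjusted test as lower in these arrays, *Itga8* at -0.59 ± 0.08 (adjusted p = 0.0235) and *Pdgfrb* at -0.58 ± 0.10 (adjusted p = 0.0420), and the median of the 8 was -0.47. *Meis1*, the gene whose promoter drives the reporter, read 321, 271 and 231 in mutant against 209.7, 224 and 189 in wild type and passed neither test.

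*Sele* read 132, 109 and 59.98 in mutant mesangial cells against 72.7, 68.6 and 79.2 in wild type. Mutant arrays A and B were the highest and mutant array C the lowest of the 6. The difference was 0.38 ± 0.28 (SE, adjusted p = 0.476), and without mutant array C it was 0.71 (adjusted p = 0.0733) and past the screen. Only mutant arrays A and B reached the signal minimum, so the gene entered the test through them. *Pecam1* was also higher on mutant arrays A and B than on C, and wild type array C had *Pecam1* at 807 and *Sele* at 79.2. The part of endothelial RNA in these *Sele* values was not tested. *Selp* was 44.2, 43.4 and 45.5 against 40.6, 38.1 and 39.9, apart without overlap but far under the signal minimum. With no minimum its difference in mesangial cells was 0.17 (adjusted p = 0.201).

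In podocytes none of the 4 tested genes passed the screen, which 5.61% of 12113 transcript clusters passed, or the adjusted test, which 0.0578% passed; unadjusted, 1 of the 4 had a p under 0.05 by limma, as had 14.3% of all. That gene was *Icam2*, with 136, 111 and 97.3 in mutant against 159, 163 and 156 in wild type podocytes. The genotypes did not overlap, as for 21.3% of all transcript clusters tested. The difference was -0.48 ± 0.15 (SE, adjusted p = 0.229), a fold change of 0.715. Without mutant array A it was -0.62 (adjusted p = 0.0598) and past the screen. The number of transcript clusters past the screen was then 1235, against 679 with all arrays.

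Endothelial markers were lower in the same podocyte arrays. Of 13 tested, 11 passed the screen as lower in the mutant, none passed the adjusted test, and their median was -1.52 where that of all transcript clusters tested was -0.04. Among the mutant podocyte arrays both the endothelial sum and *Icam2* were highest on array A and lowest on array C. The part of endothelial RNA in the *Icam2* values was not tested.

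The other tested genes overlapped between genotypes in podocytes. *Icam1* read 131, 79.6 and 94.96 in mutant against 71.9, 85.0 and 83.4 in wild type (difference 0.32 ± 0.20 SE, adjusted p = 0.489). *Vcam1* read 115, 98.0 and 77.7 against 79.6, 119 and 105 (difference -0.061, interval -0.54 to 0.41). *Sele* read 75.7, 83.6 and 85.8 against 73.5, 112 and 65.1 (difference 0.0071, interval -0.48 to 0.49). *Sele* and *Vcam1* changed sign there under some settings, and these signals lie around the minimum.

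**Figure D4:**
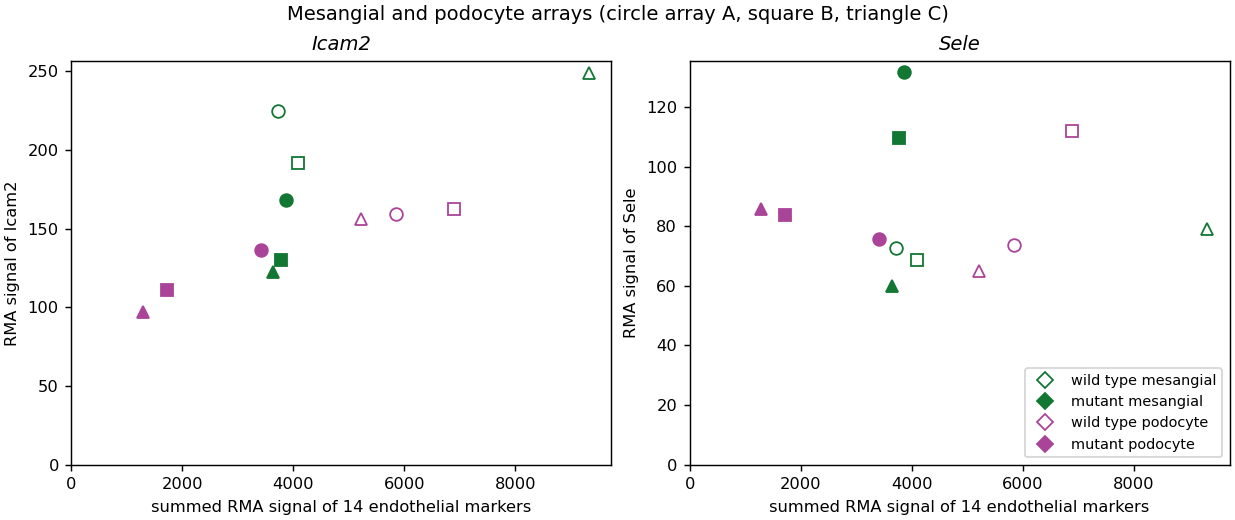
Signal of *Icam2* (left) and *Sele* (right) on the 12 mesangial and podocyte arrays against the summed RMA signal of 14 endothelial markers on the same array. Open symbols are wild type and filled ones mutant arrays; wild type mesangial array C lies alone at 9329, with the highest *Icam2* of these arrays at 249 and *Sele* at 79.2.

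Whether the genotype difference itself differed between cell types was tested as an interaction in the fit of 18 arrays. None of the 4 genes passed the adjusted test for any of the 3 pairs of cell types, where 1.07% of 13523 transcript clusters passed for endothelial minus mesangial cells, 2.11% for endothelial cells minus podocytes and 0.717% for podocytes minus mesangial cells. Unadjusted, *Vcam1* and *Icam2* had a limma p under 0.05 for both pairs that hold endothelial cells, as had 15.9% of all transcript clusters for the pair with mesangial cells and 23.4% for the pair with podocytes.

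For *Icam2* the genotype difference was 0.07 in endothelial and -0.67 in mesangial cells, and the gap between them was 0.74 ± 0.20 (SE, adjusted p = 0.0867). Against podocytes the gap was 0.56 ± 0.20 (adjusted p = 0.117). Without mutant podocyte array A the adjusted p was 0.0487 and 0.0292 for the 2 gaps, and without mutant mesangial array A it was 0.0454 for the first.

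For *Vcam1* the genotype difference was 0.69 in endothelial and -0.24 in mesangial cells, with a gap of 0.93 ± 0.34 (SE, adjusted p = 0.187). Against podocytes the gap was 0.75 ± 0.34 (adjusted p = 0.193). Without wild type endothelial array A the adjusted p was 0.0319 and 0.0460. For *Sele* the gap between endothelial and mesangial cells was 0.52 with an interval of -0.52 to 1.56. Against podocytes it was 0.89 with an interval of -0.15 to 1.93. For *Icam1* the 2 gaps were -0.19 with an interval of -0.73 to 0.34 and 0.06 with an interval of -0.48 to 0.60. These data thus neither show nor bound closely a difference between cell types for these 2 genes.

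Across the 6 groups each gene kept its own order of mean levels. For *Sele* it ran from mutant (769) and wild type endothelium (373.9) down to mutant mesangial cells (100.4), wild type podocytes (83.5), mutant podocytes (81.7) and wild type mesangial cells (73.5), and the only neighbours without overlap were wild type endothelium and mutant mesangial cells. For *Vcam1* it ran from wild type (599) and mutant mesangial cells (507) to mutant (185) and wild type endothelium (120.2), wild type podocytes (101) and mutant podocytes (97.0), with a gap only between mutant mesangial cells and mutant endothelium. *Icam1* ran from mutant (169) and wild type endothelium (127) to mutant mesangial cells (106), mutant podocytes (102), wild type podocytes (80.1) and wild type mesangial cells (71.2), and only the first 3 of these were apart from each other. *Icam2* ran from mutant (420.0) and wild type endothelium (399) to wild type mesangial cells (222), wild type podocytes (159), mutant mesangial cells (140.2) and mutant podocytes (115). Its wild type mesangial cells overlapped neither neighbour, and the other neighbours overlapped.

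Over the 18 arrays the genes did not vary as 1 group. Pearson's r of log2 signals was 0.84 between *Sele* and *Icam1* and 0.84 between *Sele* and *Icam2*. It was -0.22 between *Sele* and *Vcam1* and -0.04 between *Vcam1* and *Icam2*. The points share cell type and array, so these values describe the arrays and carry no test.

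The 3 genes whose log2 signals were most like each member over the 18 arrays, by Pearson's r, also separated the members. For *Sele* they were *Chst8* (r = 0.97), *Ppp1r15a* (0.96) and *Plxna4* (0.96). For *Icam2* they were *Ccnk* (0.97), *Esam* (0.97), an endothelial junction protein, and *Sgk1* (0.96). For *Vcam1* they were *Fhod1* (0.97), *Lix1l* (0.95) and *Lpp* (0.94). The nearest genes of *Icam1* were *Rpl13* (0.93), *Tpm3* (0.91) and *Rplp2* (0.91). *Selp* had *Apln* (0.93), *Galntl2* (0.88, now *Galnt15*) and 1190002H23Rik (0.85, now *Rgcc*). It was under the signal minimum on all 18 arrays, at 74.3 on mutant endothelial array A and at most 45.7 on the others. These 3 values for *Selp* may therefore rest on that array.

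The genes around the adhesion molecules were read from lists, by the same screen and adjusted test. Of all transcript clusters tested, 3.82%, 5.19% and 5.61% passed the screen in endothelial cells, mesangial cells and podocytes. By the adjusted test the shares were 1.29%, 2.92% and 0.0578%. The leukocyte counter-receptors are made mainly by the leukocytes that bind. Of 14 listed, 3 were tested in endothelial cells and 5 in each of the other cell types, and none passed in endothelial cells. In mesangial cells *Spn*, which encodes CD43, was higher by 1.03 ± 0.16 (SE, adjusted p = 0.0293), and *Itga4*, the alpha chain of the VCAM1 receptor VLA-4, was lower by the adjusted test, at -1.14 ± 0.10 (adjusted p = 0.0049). *Itga4* had a mean signal of 1534 ± 123 (SD, n = 3) in wild type and 697 ± 43.5 in mutant mesangial cells, so the receptor chain was measured in the same sorted cells as *Vcam1*. The mesangial markers *Itga8* and *Pdgfrb*, given above, were lower in the same mutant arrays, and the median of the 8 mesangial markers was -0.47. Whether *Itga4* moved with them was not tested. Without mutant mesangial array B *Spn* was again at 1.03, with an adjusted p of 0.109. In podocytes *Itga4* (-1.75 ± 0.42) and *Cd24a* (-1.31 ± 0.42), which encodes a ligand of P-selectin, passed the screen as lower, with adjusted p of 0.167 and 0.242. Of 8 mesangial markers 3 passed the screen as lower in the same podocyte arrays, among them *Itga8* with 724, 472 and 134 in mutant against 1153, 1152 and 869 in wild type, beside the 11 endothelial markers above. *Cd24a*, which is also on the list of parietal markers, had a mean of 3147 in wild type endothelium. The part of mesangial and endothelial RNA in the *Itga4* and *Cd24a* values was not tested.

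Among 22 other endothelial adhesion and transmigration genes, 21 were on the array and 14, 15 and 14 were tested in endothelial cells, mesangial cells and podocytes. In endothelial cells 1 passed the screen, *Mcam*, at 0.61 ± 0.15 (SE, adjusted p = 0.107), and it did not without mutant array A (0.56). The median of the 14 was 0.21, against 0.07 for all transcript clusters tested. In mesangial cells *Cd34*, a sialomucin, was lower by the adjusted test (-1.05 ± 0.09, adjusted p = 0.0054) and *Bcam*, a laminin receptor, by the screen alone (-0.66 ± 0.16, adjusted p = 0.0800). The endothelial markers *Tek* and *Ehd3*, 2 of 13 tested, and the mesangial markers *Itga8* and *Pdgfrb*, 2 of 8, passed the adjusted test as lower in the same mutant arrays. Summed over 14 endothelial markers, the signal was 3638 to 3863 in mutant and 3721, 4090.1 and 9329 in wild type arrays A, B and C. The part of those cells in the *Cd34* and *Bcam* values was not tested. Without wild type array C *Bcam* was at -0.58 and short of the screen, and *Jam3*, a junction protein, passed it at -0.59, so that the count stayed at 2. In podocytes 5 passed the screen as lower, *Emcn* (-2.53), *Cd34* (-1.77), *Cdh5* (-1.77), *Pecam1* (-1.60) and *Esam* (-0.60), and 4 of these 5 are among the 14 endothelial markers above.

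The cytokine receptors and NF-kappaB genes act upstream of *Sele*, *Vcam1* and *Icam1*. Of 40 listed, 32, 29 and 32 were tested in endothelial cells, mesangial cells and podocytes. In endothelial cells 2 passed the screen, both as higher, where 3.82% of 11330 transcript clusters passed it and 2.96% as higher. Of these 2, 1 passed the adjusted test with all arrays, as did 1.29% of all, and none did without mutant array A. *Irf1*, a transcription factor that interferon induces, was at 0.60 ± 0.14 (SE, adjusted p = 0.0923). It passed the screen without mutant array A as well, at 0.65. None of the genes of the NF-kappaB complex or its inhibitors passed in endothelial cells.

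In mesangial cells 3 of the 29 passed the adjusted test, all as higher, where 2.92% of all transcript clusters did and 1.25% as higher. All 3 are receptors of inducing signals, and the other receptors on the list passed neither test. *Il1r1*, the receptor of IL-1, rose by 0.70 ± 0.10 (SE, adjusted p = 0.0226), *Ifngr1*, of interferon gamma, by 0.60 ± 0.11 (adjusted p = 0.0404) and *Tlr4*, of bacterial lipopolysaccharide, by 0.50 ± 0.09 (adjusted p = 0.0425). The median of all 29 was -0.01, against -0.02 for all transcript clusters tested. Mutant mesangial array B had the highest leukocyte sum of all arrays (2367), and without it the differences were 0.68, 0.58 and 0.46, with adjusted p of 0.0951, 0.142 and 0.145. Without wild type array C they were 0.63, 0.65 and 0.52, and only *Il1r1* stayed under 0.05 (adjusted p = 0.0337). *Acta2* and *Tagln*, 2 of 5 smooth muscle and juxtaglomerular markers, and *Cldn1*, 1 of 2 parietal markers tested, were higher in the same mutant mesangial arrays. The median of the 5 was 0.13, and the other parietal marker, *Cd24a*, was at -0.97. The part of smooth muscle and parietal cells in these receptor values was not tested. In podocytes 2 passed the screen as higher and 3 as lower, where 5.61% of all transcript clusters passed it. None passed the adjusted test with all arrays. *Nfkbia*, the inhibitor induced by NF-kappaB itself, was among the higher genes (0.81 ± 0.13). *Ifngr1* (-0.94 ± 0.12), *Irak4* (-0.63 ± 0.24) and *Traf6* (-0.59 ± 0.16) were the lower ones. In the same podocyte arrays 11 of 13 endothelial and 3 of 8 mesangial markers passed the screen as lower. As higher, 2 of 4 smooth muscle and juxtaglomerular markers and 2 of 3 parietal markers passed it. The parietal marker *Cd24a* passed it as lower. The part of those cells in these values was not tested. Without mutant array A the screen count was 2 higher and 5 lower of 31 tested, where 1235 of all 11936 transcript clusters passed. By the adjusted test, which 344 of all then passed, 1 higher and 2 lower genes of the list were called. These were *Nfkbia* (0.83, adjusted p = 0.0419), *Ifngr1* (-0.88, adjusted p = 0.0298) and *Irak4* (-0.90, adjusted p = 0.0385).

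Chemokines are presented on endothelium beside the adhesion molecules. Of 11 genes listed, 9 chemokines and the cytokine genes *Csf1* and *Il6*, 6 were tested in endothelial cells and none passed. In mesangial cells 3 of 7 passed the screen as higher, as did 238 of all 11457 transcript clusters: *Ccl2*, which draws monocytes (1.34 ± 0.15 SE, adjusted p = 0.0134), *Cxcl10*, which draws T cells (1.53 ± 0.40, adjusted p = 0.0949), and *Cx3cl1*, the membrane-bound fractalkine (0.60 ± 0.15, adjusted p = 0.0814). *Ccl2* had a mean signal of 161 ± 13.8 (SD, n = 3) in mutant and 64.4 ± 13.2 in wild type mesangial cells, where it was under the signal minimum, so it entered the test through the mutant arrays and its difference does not give the true fold. The list median there was 0.60. Without mutant array B *Ccl2* was at 1.33 (adjusted p = 0.0626) and *Cx3cl1* at 0.51, outside the screen, while *Cxcl10* was at 1.92 and *Cxcl9* entered it at 1.79, so that the count stayed at 3. *Acta2* and *Tagln*, 2 of 5 smooth muscle and juxtaglomerular markers, and *Cldn1*, 1 of 2 parietal markers tested, were higher in the same mutant arrays. The median of the 5 was 0.13, and the parietal marker *Cd24a* was at -0.97. The part of those cells in these values was not tested. In podocytes *Cxcl1* (0.80 ± 0.21) and *Cxcl12* (0.79 ± 0.17) passed the screen as higher. In the same podocyte arrays 2 of 4 smooth muscle and juxtaglomerular markers tested passed as higher, with a median of 1.42 and *Ren1*, the gene of renin, at 789, 691 and 467 against 228, 134 and 228. Of 3 parietal markers tested 2 passed as higher, among them *Cldn1* with 503, 376.7 and 298 against 141, 138 and 171. The parietal marker *Cd24a*, given above, passed as lower. The part of these cells in the *Cxcl1* and *Cxcl12* values was not tested.

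Of 14 enzymes of selectin ligands, sheddases and cytoskeletal anchors, 11, 11 and 9 were tested. *Actn1*, an alpha-actinin of the kind that holds the tail of ICAM1, passed the screen in endothelial cells (0.63 ± 0.16 SE, adjusted p = 0.113) and in podocytes (0.76 ± 0.22). Without mutant array A it was at 0.45 and 0.50 and outside the screen in both. *Adam17*, a sheddase that releases VCAM1 from the cell surface, was lower in mutant podocytes by the screen (-0.78 ± 0.22). Without mutant array A it was at -1.03 and passed the adjusted test (adjusted p = 0.0295). Endothelial and mesangial markers were lower in the same podocyte arrays, as given above, and the part of those cells in this value was not tested. No gene of this list passed in mesangial cells.

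**Figure D5:**
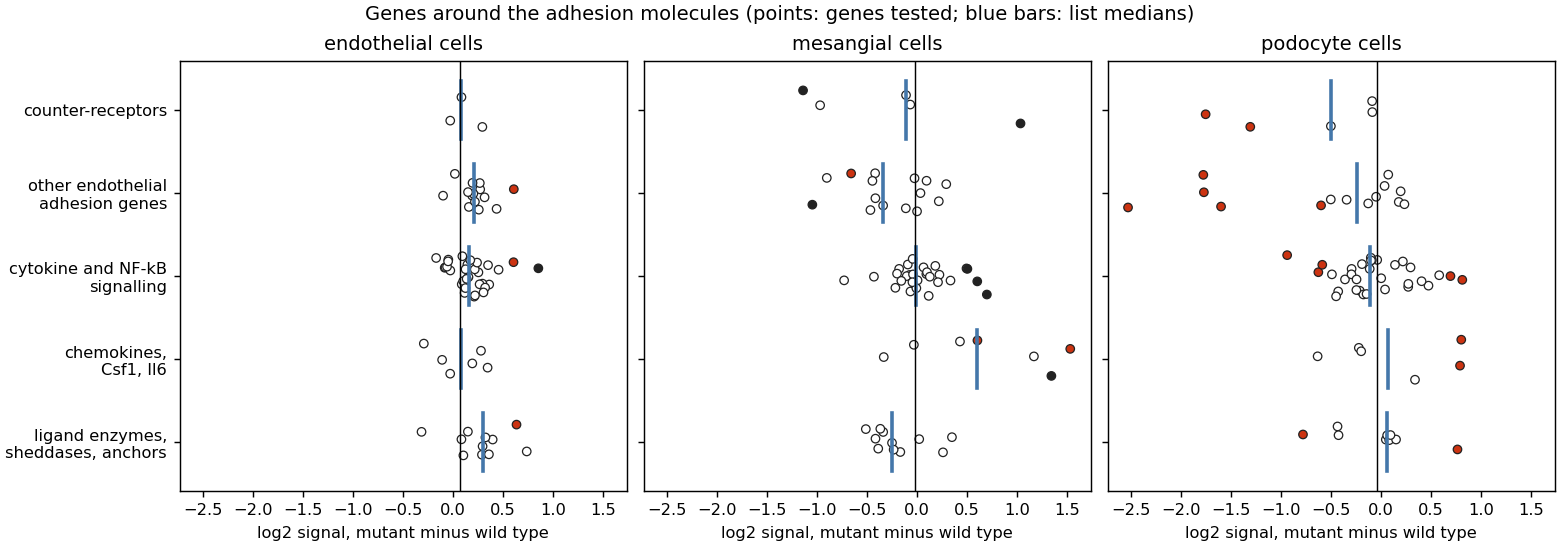
Log2 difference between mutant and wild type arrays of each tested gene of the 5 lists, by cell type. White points passed neither test, red points the screen only and black points the adjusted test; blue bars are list medians and the black line the median of all transcript clusters tested, and the points to the right among the mesangial genes of the chemokine list include *Cxcl10* at 1.53 and *Ccl2* at 1.34.

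The split of calls by direction depends on the scaling of the arrays. In endothelial cells 335 transcript clusters passed the screen as higher and 98 as lower, with array medians subtracted 440 and 61, and after a second quantile normalization 259 and 137. In podocytes the split was 153 higher and 526 lower, and 216 and 437 after the second quantile normalization. The differences of *Sele*, *Vcam1* and *Icam1* in endothelium and of *Icam1* and *Icam2* in mesangial cells kept their sign under these scalings, but *Sele* left the screen after the second quantile normalization (0.79), and *Icam1* in endothelium was never past it.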

How the data were processed

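The authors amplified RNA by Ribo-SPIA and hybridized it to arrays whose header names the Mouse Gene ST design. The deposited table holds intensity values on a linear scale, made by the authors with RMA (background correction, quantile normalization and summary of probes) by the sample records. Its other 18 columns of per-sample values, a centred form of these, were not used, and RNA-seq was not analysed here. For array and software the series record gives Exon ST and GeneBASE, against the file's header. Quantile normalization makes the arrays' signal distributions alike, so a shift of most genes one way is not seen, and levels near the minimum are compressed.

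Array medians were 62.8 to 71.6, and between 9697 and 10097 transcript clusters reached 100 on an array; the number of arrays limits the precision. The columns name their group but not their sample, and arrays were grouped by those names. Log2 signals were fitted in R 4.3.3 with limma 3.58.1 (lmFit, eBayes), without covariates, over all transcript clusters that reached 100 on any array of the comparison, and p-values were adjusted over all of these by Benjamini-Hochberg. Intervals are at 95%. Genotypes were fitted within a cell type, cell types and interactions over all 18 arrays. The code was tested on simulated data. Named genes are the 5 adhesion molecules, *Cd2ap*, the 3 nearest genes of each member, and the genes of the 5 lists that passed either test; marker genes are named beside the results they moved with, and some of these were chosen after their values were seen. The members and lists were chosen with earlier results of these data known. Alternatives were the signal minimum, array weights, trended and robust variance, array scaling, 1 fit of all arrays, mutant arrays for cell type levels, and each array left out in turn; list counts without single arrays were added after seeing the data. Some genes that the naming rule covers are not reported here by name.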

Additional observations from a re-analysis of the deposited data

How the results depend on the processing

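Genotype differences, cell type differences that involve endothelial cells and counts past the screen kept their direction and their side of the screen (for cell types, of the adjusted p and 2-fold change) in all but 44 of 412 recomputed values. This does not count the adjusted test, by which *Icam1* in mesangial cells lost its call without any array but wild type array C and in the fit of all 18 arrays. *Sele* in endothelial cells left the screen with no signal minimum and with a trended, robust variance (0.90 in both), with array weights (0.79) and after a second quantile normalization (0.79), so that 1 of the adhesion molecules passed under each. Over arrays left out, *Sele* ranged from 0.45 to 1.29, *Vcam1* from 0.50 to 1.02 and the number of adhesion molecules past the screen in endothelial cells from 0 to 2. In mesangial cells the ranges were 0.54 to 0.61 for *Icam1*, -0.81 to -0.58 for *Icam2*, 0.14 to 0.71 for *Sele* and 0 to 2 for the number past the screen. In podocytes they were -0.62 to -0.37 for *Icam2*, -0.15 to 0.061 for *Sele*, -0.22 to 0.090 for *Vcam1*, 0 to 1 for the number past the screen, and 575 to 1235 for all transcript clusters past it. *Sele* in podocytes also turned to -0.040 with array weights, -0.025 with array medians subtracted and -0.0096 after quantile normalization, and *Icam2* in endothelial cells to -0.047 after the latter. The endothelial minus podocyte difference ranged from -0.14 to 0.38 for *Vcam1*, and the gap of genotype differences for *Icam1* between these cells from -0.16 to 0.26, with -0.036 after quantile normalization. Podocyte minus mesangial differences turned to -0.22 for *Sele* and -0.087 for *Icam1* on mutant arrays, and ranged from -0.085 to 0.31 for *Sele* over arrays left out. On mutant arrays *Icam2* was 1.59 higher in endothelial than mesangial cells, and *Vcam1* differed by -1.46 between these and by 0.94 (adjusted p = 0.0038) between endothelial cells and podocytes. Causes were not tested.

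Transcript clusters past the adjusted test moved by more than 1.5 times. In endothelial cells they were 146, and 83 to 275 over settings or 49 to 253 over arrays left out. In mesangial cells they were 335, and 258 to 729 or 50 to 304. In podocytes they were 7, and 0 to 837 or 0 to 344. With list genes, the podocyte counts past the screen without mutant array A were 3 counter-receptors, 7 signalling genes and 3 chemokines, against 2, 5 and 2, and in endothelial cells none of the adhesion genes or anchors passed without mutant array A. Without mutant podocyte array A, genes of every list passed the adjusted test in podocytes, with adjusted p of 0.0093 to 0.0419. They were *Itga4*, *Cd24a*, *Emcn*, *Cdh5*, *Nfkbia*, *Ifngr1*, *Irak4*, *Cxcl1* and *Adam17*. Calls rose over all genes in this setting, to 344 of 11936 transcript clusters from 7 with all arrays, so nothing is read from these calls about the lists. *Emcn* and *Cdh5* are among the endothelial markers that were lower in these podocyte arrays. No paired analysis was possible because the groups share no replicate numbers. Each adhesion molecule had 1 transcript cluster, so the alternative of other clusters gave no value, and the deposited centred values were not run.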
